A study of Mus musculus with 7 samples.

Results

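The genes described here are 10 genes of the circadian clock: Bhlhe40 and Bhlhe41, the period genes Per1, Per2 and Per3, the cryptochromes Cry1 and Cry2, Nr1d1, Dbp and Clock. They were taken by symbol from the 54446 genes of the count table, and all 10 were found and passed the filter on low counts. The list was drawn up around Bhlhe40, whose lower level after caerulein was already known from these libraries, so the list was chosen by values of the same contrast. Group differences of the 10 genes are therefore given as a description, and nothing is supported by them. Which members passed a threshold is listed later, with no p-value printed, and is no independent test.

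The clock of a mammalian cell is a feedback loop of transcription. CLOCK pairs with BMAL1 (encoded by Arntl), binds E-box sequences and switches on the period and cryptochrome genes, whose proteins return to the nucleus and inhibit the pair. BHLHE40 and BHLHE41, also called DEC1 and DEC2, bind the same E-boxes as repressors, and NR1D1 (REV-ERB alpha) represses Arntl. DBP is an output activator that binds D-box sequences, and in the pancreas the clock is best known for its part in hormone and enzyme secretion.

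RNA was sequenced from pancreatic spheroids, 3-dimensional epithelial cultures, of wild-type C57BL/6J mice. There were 4 libraries from mice treated earlier with caerulein, which acts like cholecystokinin and inflames the pancreas, and 3 from untreated mice. All cultures shared one medium, with 0.5 µM hydrocortisone, 20 ng/ml EGF and 100 ng/ml cholera toxin among its supplements. The caerulein dose, the interval before culture, the age of the mice and the hour of harvest are not stated in the labels, and each library is a single harvest, so no phase of a rhythm can be read from it. The labels do not say whether libraries came from separate animals or cultures, so spreads and p-values cover these libraries only and may be partly technical.

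Total counts per library ranged from 34783738 to 46744497. Ductal epithelial markers summed to 13572 to 20802 CPM (counts scaled to library size) in post-caerulein and 13344 to 15128 CPM in untreated libraries, and Krt19 was at 2304 CPM or more in all 7. Single ductal markers differed between libraries: Cftr, the chloride channel gene, was at 4.67 to 4.76 CPM in post-caerulein libraries, against 39.1, 38.5 and 1.02 CPM in untreated 1, 2 and 3. Sox9, a ductal transcription factor gene, was at 37.1 to 51.7 CPM in post-caerulein libraries, against 10.9, 12.9 and 61.7 CPM in untreated ones. Krt7 averaged 1895 CPM in post-caerulein and 2466 CPM in untreated libraries, and Krt8 4315 and 3052 CPM. Acinar markers summed to 3.02 to 12.0 CPM in post-caerulein and 1.46 to 2.10 CPM in untreated libraries, with Cpa1 at 0 in 3 libraries and Ptf1a at 0 in 5. Fibroblast markers summed to 2.64 to 6.94 CPM and 0.127 to 20.8 CPM, islet markers to 0.462 to 4.51 CPM and 0.0248 to 0.400 CPM, and endothelial markers to 0.168 to 0.799 CPM and 0.173 to 0.534 CPM, each with post-caerulein libraries before untreated ones. Leukocyte markers summed to 11.9 to 35.6 CPM in post-caerulein and 20.8 to 98.3 CPM in untreated libraries, nearly all of it Cd68, while Ptprc was at or under 0.105 CPM. The part of these markers in the results below was not tested. By the coefficient of variation between 2 libraries, untreated 3 and post-caerulein 4 were nearer to each other (23.7%) than to any of the other 5 (30.0% or more). A block term that separates those 2 libraries gave back the log2 fold changes of the authors' deposited table to within 3.16e-08, and no label says what the block stands for. Untreated 1 and 2 formed a close pair, as did post-caerulein 2 and 3, with 8.46% and 5.73% within them, against 22.0% or more between any other libraries.

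Promoter sequences are shown for the 4 clock genes in which a searched clock motif lay in the 250 bases before the start site. E-boxes and D-boxes are motifs that clock proteins bind in general, as described above. RefSeq (GRCm38.p6) held 11 promoter windows for 8 of the 10 genes; Bhlhe40 and Per2 had no entry. The E-box CACGTG, read on both strands, was present once each in Bhlhe41 (chr6:145865421-145865670, minus strand), Per1 (chr11:69098699-69098948, plus strand) and Cry1 (chr10:85185055-85185304, minus strand), 153, 166 and 60 bases before the start. Per1 has 2 windows in the table, and the other one held no E-box. Per3 (chr4:151044666-151044915, minus strand) had the D-box TTATGTAA 205 and 158 bases before the start. Besides TTATGTAA, the D-box was searched as TTACGTAA only. The Per1 window shown also holds TTATGCAA, in lower case, which was not among the motifs searched. Capitals mark the motif found by the search in each sequence.
Bhlhe41: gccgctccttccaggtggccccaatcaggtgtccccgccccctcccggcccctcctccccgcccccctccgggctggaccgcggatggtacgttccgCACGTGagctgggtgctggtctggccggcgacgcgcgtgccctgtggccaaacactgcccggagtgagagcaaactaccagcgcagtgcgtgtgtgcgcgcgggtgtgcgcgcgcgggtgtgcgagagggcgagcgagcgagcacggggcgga
Per1: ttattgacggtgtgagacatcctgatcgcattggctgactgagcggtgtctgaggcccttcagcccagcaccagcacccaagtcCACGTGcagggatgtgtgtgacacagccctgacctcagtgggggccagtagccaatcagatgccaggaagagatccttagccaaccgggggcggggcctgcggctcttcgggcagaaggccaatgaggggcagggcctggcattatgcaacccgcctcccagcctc
Cry1: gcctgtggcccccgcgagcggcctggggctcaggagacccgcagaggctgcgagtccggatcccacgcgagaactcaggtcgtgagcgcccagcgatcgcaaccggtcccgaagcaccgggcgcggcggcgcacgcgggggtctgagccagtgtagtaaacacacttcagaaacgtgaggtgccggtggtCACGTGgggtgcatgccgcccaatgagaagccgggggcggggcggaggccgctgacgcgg
Per3: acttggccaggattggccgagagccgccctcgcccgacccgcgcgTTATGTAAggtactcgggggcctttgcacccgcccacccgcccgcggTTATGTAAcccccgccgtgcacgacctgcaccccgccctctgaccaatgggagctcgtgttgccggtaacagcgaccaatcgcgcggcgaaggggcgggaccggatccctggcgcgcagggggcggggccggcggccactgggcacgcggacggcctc

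Of all 32851 mouse promoters in that table, 6.02% held CACGTG and 0.819% held TTATGTAA in the same window. The other motifs searched were the D-box variant TTACGTAA (0.113% of promoters), the cAMP element TGACGTCA (1.55%), the glucocorticoid element, by name (0.00913%) and the ROR element, by name (0.332%). None of these lay in the 11 windows, and the windows of Cry2, Nr1d1, Dbp and Clock held no match to any motif searched. For the Cry2 and Nr1d1 windows and the Per1 window not shown, the bases after the start were not found in reference transcripts. Their start sites are thus less certain. No match overlapped another. A match is a string of letters in a window and was not measured as a bound site.

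Per kilobase of exon, Bhlhe40 was the most abundant of the 10 genes, at 53.7 ± 13.8 CPM per kb in post-caerulein (SD, n = 4) and 129 ± 15.0 CPM per kb in untreated libraries (SD, n = 3). Over all 7 libraries the mean levels ran from Bhlhe40 (86.1 CPM per kb) through Per1 (39.6), Cry2 (19.9), Nr1d1 (13.5), Clock (10.8), Dbp (8.88), Cry1 (7.61), Bhlhe41 (4.30) and Per3 (3.79) to Per2 (3.16). Bhlhe40 over Per1, Per1 over Cry2, and Cry1 over Bhlhe41 were the steps in which the higher gene led in 7 of 7 libraries and the gap between the means exceeded the SD of either gene. Per3 also exceeded Per2 in 7 of 7 libraries, with a gap between the means under their SD. Cry2, Nr1d1, Clock, Dbp and Cry1 followed each other by gaps within their spread, and Bhlhe41 was above Per3 in 3 of 7 libraries.

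**Figure D1:**
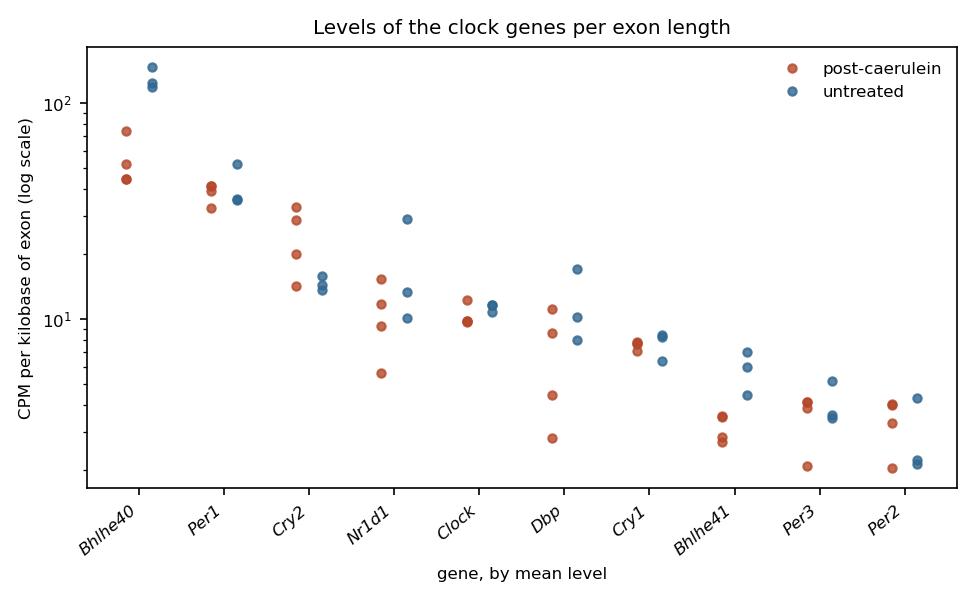
Level of each clock gene in CPM per kilobase of exon, on a log scale, with 1 point per library and the genes in order of their mean over 7 libraries. Post-caerulein points stand left of untreated points; Bhlhe40 is highest at a mean of 86.1 and Per2 lowest at 3.16.

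Bhlhe40 was lower in every post-caerulein library than in any untreated one. It was at 141, 166, 141 and 234 CPM in post-caerulein 1 to 4, against 463, 391 and 373 CPM in untreated 1, 2 and 3. The gene (ENSMUSG00000030103.11) lies on chromosome 6, 108660629 to 108666925, plus strand, GRCm38. Its log2 fold change was -1.28 ± 0.18 (SE) in edgeR's quasi-likelihood fit with the block and -1.26 ± 0.20 with group as the only term, a level 2.42-fold lower. The log2 difference was -1.52 within the larger block (untreated 1 and 2 with post-caerulein 1 to 3) and -0.68 within the smaller one. In RNA from bulk cultures, fewer cells that express a gene and less RNA of it per cell cannot be told apart.

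Bhlhe41, the paralogue of Bhlhe40 and also an E-box repressor, had the same order of groups at a lower CPM. It was at 22.3, 17.8, 16.9 and 22.1 CPM in post-caerulein 1 to 4, against 44.2, 37.5 and 27.8 CPM in untreated 1, 2 and 3. The groups did not overlap, and post-caerulein 1 and untreated 3 were the libraries nearest to each other across the gap. The log2 fold change was -0.88 ± 0.18 (SE) with the block, with -1.11 in the larger block and -0.33 in the smaller. Per kilobase, Bhlhe40 exceeded Bhlhe41 by 17.1 ± 3.51 times in post-caerulein (SD, n = 4) and 22.6 ± 3.39 times in untreated libraries (SD, n = 3), and this ratio overlapped between the groups.

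The period genes encode inhibitors of CLOCK and BMAL1. Per1, which also responds to glucocorticoids and cAMP, was at 182, 230, 233 and 219 CPM in post-caerulein 1 to 4, against 202, 199 and 293 CPM in untreated 1, 2 and 3. The groups overlapped, with the highest value in untreated 3 and the lowest in post-caerulein 1, and the log2 fold change with the block was -0.05 ± 0.14 (SE). Per2 was at 11.9, 23.45, 23.7 and 19.2 CPM in post-caerulein libraries, against 12.4, 12.99 and 25.2 CPM in untreated ones. Its low values were those of post-caerulein 1 and untreated 1 and 2, and its log2 fold change was 0.33 ± 0.30. Per3 was at 12.5, 24.9, 24.8 and 23.4 CPM in post-caerulein libraries, against 20.9, 21.6 and 30.9 CPM in untreated ones. Post-caerulein 2, 3 and 4 lay within the untreated range for Per3, post-caerulein 1 lay below it, and its log2 fold change was -0.14 ± 0.24.

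The cryptochromes are the stronger repressors of the loop. Cry1 was nearly level, at 23.1, 23.4, 23.6 and 21.5 CPM in post-caerulein 1 to 4, against 25.6, 24.9 and 19.2 CPM in untreated 1, 2 and 3, with a log2 fold change of -0.03 ± 0.10 (SE). Cry2 was at 86.6, 125, 143 and 61.4 CPM in post-caerulein libraries, against 62.3, 68.5 and 59.3 CPM in untreated ones. Post-caerulein 1, 2 and 3 were above all untreated libraries for Cry2, and post-caerulein 4 lay among them. The log2 fold change was 0.61 ± 0.22, with a difference of 0.82 in the larger block and 0.05 in the smaller. The ratio of Cry2 to Cry1 per kilobase was 2.61, 3.72, 4.22 and 1.99 in post-caerulein 1 to 4, against 1.69, 1.92 and 2.15 in untreated 1, 2 and 3.

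Nr1d1 and Dbp, direct CLOCK and BMAL1 targets of high amplitude in many tissues, varied most between libraries. Nr1d1 was at 15.3, 25.2, 31.8 and 41.5 CPM in post-caerulein 1 to 4, against 36.4, 27.5 and 78.8 CPM in untreated 1, 2 and 3. Untreated 3 stood above every other library, the groups overlapped, and the log2 fold change with the block was -0.56 ± 0.25 (SE). Dbp was at 5.16, 15.8, 20.4 and 8.16 CPM in post-caerulein libraries, against 18.7, 14.6 and 31.4 CPM in untreated ones. Post-caerulein 1 and 4 were the low libraries and untreated 3 the high one, with a log2 fold change of -0.76 ± 0.51. The difference for Dbp was -0.48 in the larger block and -1.94 in the smaller.

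Both genes share exon sequence with a gene on the opposite strand, and no label states the strand setting of the counting. Dbp shares 539 exon bases, 29.3% of its exon length, with Sphk2, and Nr1d1 shares 263 bases, 9.67%, with Thra, so reads in those stretches are uncertain. Sphk2 was at 34.2, 44.5, 48.6 and 49.6 CPM in post-caerulein 1 to 4, against 51.5, 46.0 and 56.9 CPM in untreated 1, 2 and 3. Thra was at 24.5, 30.3, 31.1 and 27.1 CPM in post-caerulein libraries, against 24.9, 22.4 and 47.6 CPM in untreated ones. As with Nr1d1 and Dbp, untreated 3 was the highest library for both partner genes, as it was for 23.3% of all genes tested. What the shared reads contribute was not tested. Bhlhe41 shared 13.7% of its exon length with the predicted gene Gm43909, which had 239 reads in all against 8105 for Bhlhe41.

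Clock, the transcription factor partner of BMAL1, moved least of the 10 genes relative to its level. It was at 121, 97.2, 96.45 and 96.8 CPM in post-caerulein 1 to 4, against 115, 115 and 106 CPM in untreated 1, 2 and 3. Its highest library was 1.26-fold above its lowest, against 6.08-fold for Dbp and 5.14-fold for Nr1d1. The median of this ratio was 2.44 over the 10 genes and 1.93 over all genes tested. The log2 fold change of Clock was -0.13 ± 0.10 (SE), with -0.14 in the larger block and -0.13 in the smaller.

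**Figure D2:**
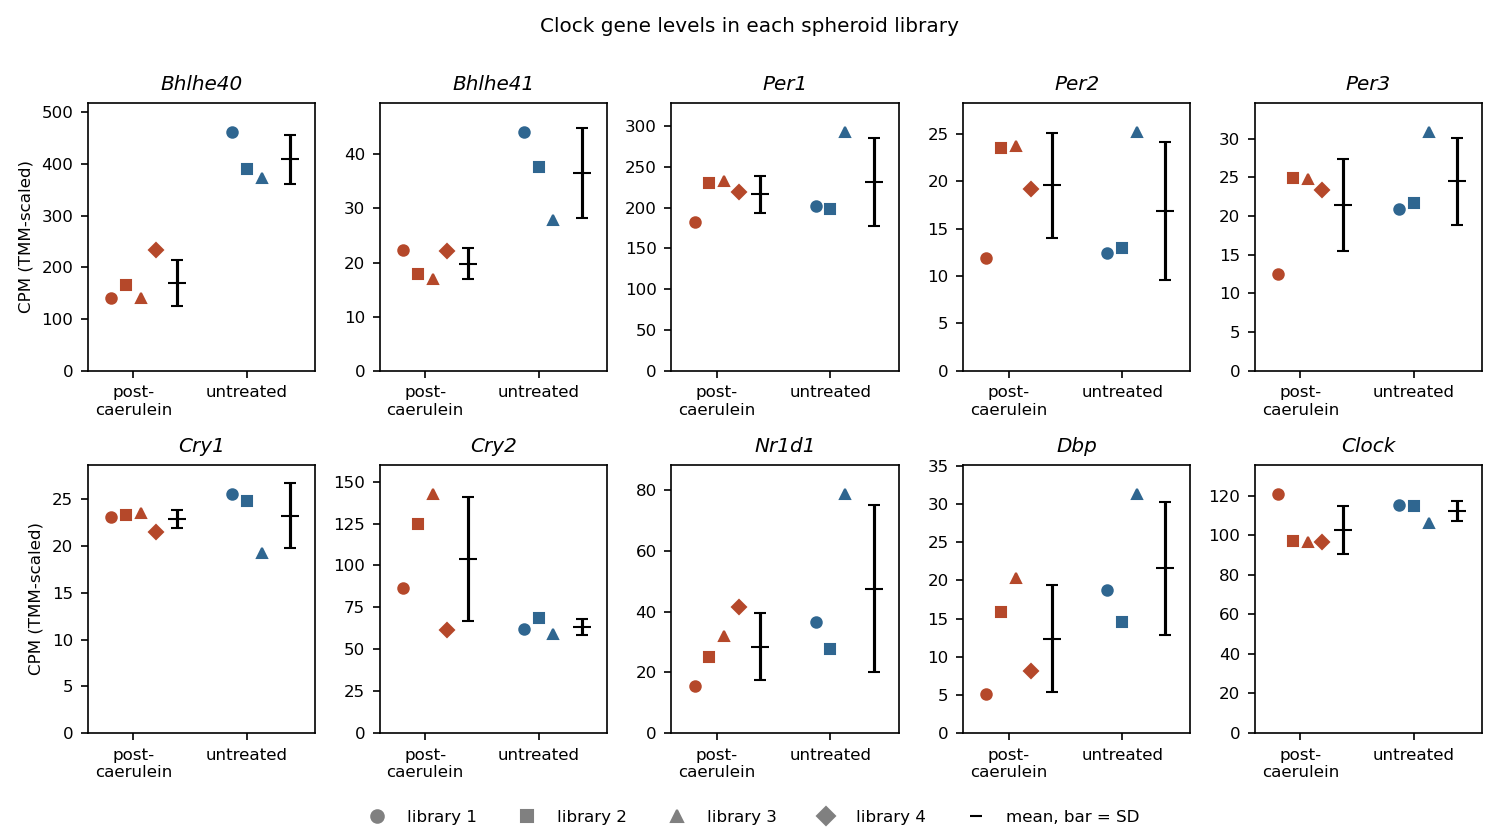
CPM of the 10 clock genes, 1 panel per gene, in 4 post-caerulein (left) and 3 untreated (right) libraries; symbols give the library number and the black mark and bar the mean and SD. Bhlhe40 and Bhlhe41 are the panels in which the groups do not overlap, and untreated 3 is the high point for the period genes, Nr1d1 and Dbp.

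Set side by side, 8 of the 10 genes had a negative and 2 a positive log2 fold change in the fit with the block, with a median of -0.14 against -0.004 over all genes. The groups did not overlap for 2 of them, both lower after caerulein, where 4.65% of all genes did so in that direction and 4.67% in the other. Bhlhe40 was the 1 member with an adjusted p under 0.05 in edgeR's quasi-likelihood fit with the block. That fit called 0.876% of 16438 genes lower and 0.651% higher. With the block DESeq2 called Bhlhe40 and Bhlhe41, where it called 9.16% of the genes with an adjusted p. Limma-voom called Bhlhe40, where it called 2.18%. Bhlhe40 was called in 6 of 14 alternatives, which did not include limma-voom, as given below. With group as the only term edgeR's quasi-likelihood test called 0 genes, 0% of those tested, with 1561 at an unadjusted p under 0.05, while DESeq2 called 509 and limma-voom 0. In the authors' deposited table Bhlhe40 (-1.26) and Bhlhe41 (-0.87) were lower and Cry2 (0.63) was higher at a false discovery rate under 0.05, where 3.39% of its 12983 genes were lower and 4.49% higher. Because this contrast chose the list, these calls are no independent test of its members, and nothing is read from the shares.

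The blocks did not give the same picture for all 10 genes. The sign was the same in both blocks for 7 genes, negative for Bhlhe40, Bhlhe41, Per3, Nr1d1, Dbp and Clock and positive for Cry2. Per1, Per2 and Cry1 had opposite signs. Per2 differed by 0.56 in the larger block and by -0.39 in the smaller, the widest such change of sign among them. The smaller block is 1 library against 1 and has no replicate.

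**Figure D3:**
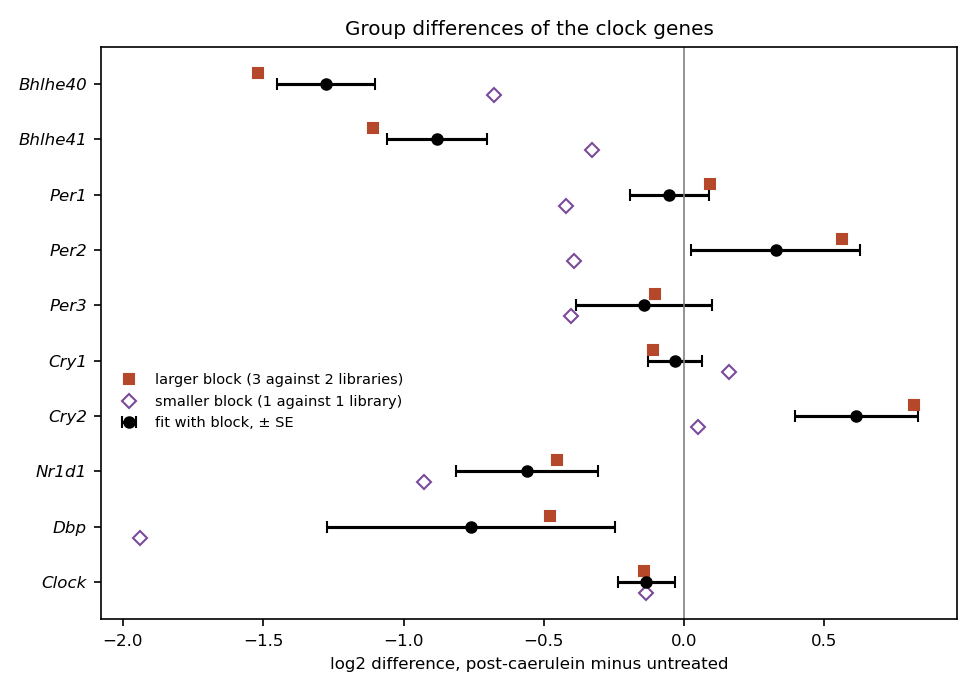
Log2 difference between post-caerulein and untreated libraries for each clock gene: the fit with the block with its SE (black), the difference of mean log2 CPM in the larger block (squares) and post-caerulein 4 minus untreated 3 (open diamonds). Bhlhe40 and Bhlhe41 lie left of 0 by all of these measures, while Per1, Per2 and Cry1 lie on both sides.

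Across single libraries, 5 of the 10 genes shared their highest and their lowest library. Per1, Per2, Per3, Nr1d1 and Dbp each had their highest value in untreated 3 and their lowest in post-caerulein 1, a pattern shown by 8.83% of all genes tested. These 5 were picked out after their values were seen. Untreated 3 exceeded post-caerulein 1 by 6.08-fold for Dbp, 5.14-fold for Nr1d1, 2.46-fold for Per3, 2.12-fold for Per2 and 1.61-fold for Per1. Post-caerulein 1 was also below the mean of post-caerulein 2 and 3, by 3.51-fold for Dbp, 1.98-fold for Per2 and Per3, 1.86-fold for Nr1d1 and 1.27-fold for Per1. The libraries between these extremes were ordered differently: post-caerulein 4 was the second highest for Nr1d1 and the second lowest for Dbp. The highest library for Bhlhe40 was untreated 1, and its level in post-caerulein 1 was 0.922 of the mean of post-caerulein 2 and 3.

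Arntl, which encodes BMAL1 and is repressed by NR1D1, was at 24.9, 19.7, 19.4 and 12.1 CPM in post-caerulein 1 to 4, against 28.9, 29.3 and 17.9 CPM in untreated 1, 2 and 3. Arntl was lowest in post-caerulein 4 and untreated 3, which were the highest libraries for Nr1d1. The ratio of Nr1d1 to Arntl per kilobase was 0.700, 1.45, 1.86 and 3.91 in post-caerulein 1 to 4, against 1.43, 1.07 and 5.01 in untreated 1, 2 and 3. It was highest in the libraries of the smaller block in both groups. Ciart, another CLOCK and BMAL1 target and repressor, was at 1.23, 3.47, 3.83 and 5.38 CPM in post-caerulein libraries, against 4.51, 3.84 and 5.16 CPM in untreated ones, again lowest in post-caerulein 1.

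**Figure D4:**
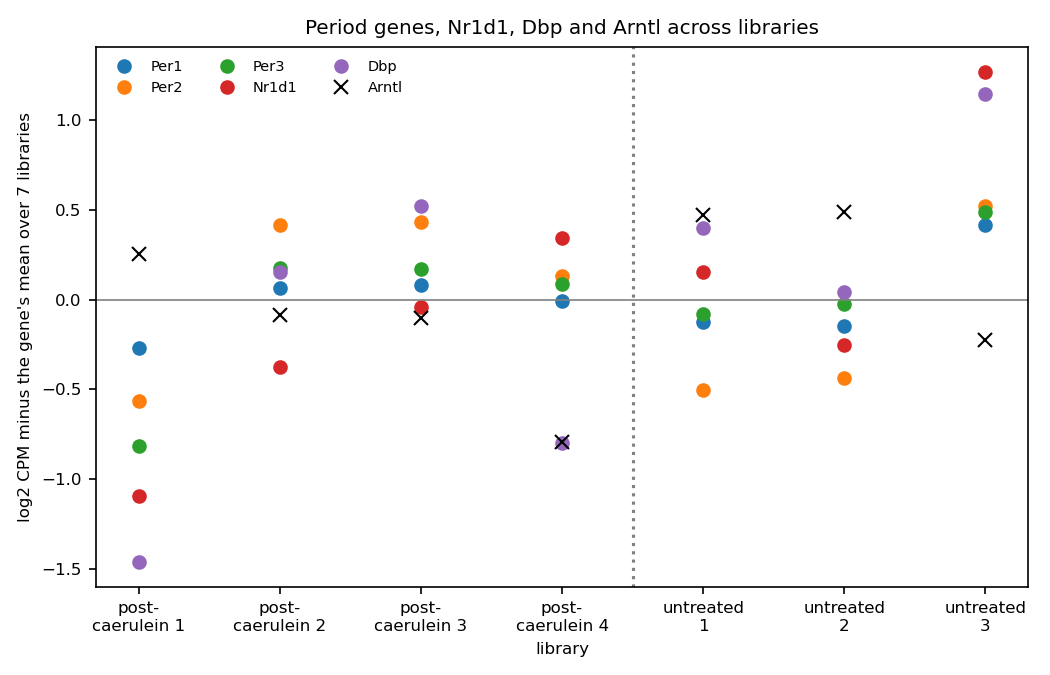
Log2 CPM of the period genes, Nr1d1, Dbp and Arntl in each library, minus the gene's own mean over 7 libraries; post-caerulein libraries stand left of the dotted line and untreated ones right. The 5 coloured genes are lowest in post-caerulein 1 and highest in untreated 3, while Arntl (crosses) is lowest in post-caerulein 4.

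The rest of the pathway was followed through lists of 57 genes that hold none of the 10, of which 56 were tested. In edgeR's quasi-likelihood fit with the block 0 of them were called higher and 2 lower, where 0.651% of all genes were called higher and 0.876% lower. Both lay outside the clock proper: the stress gene Ddit4 and the phosphodiesterase gene Pde4d. Of the 56 log2 fold changes 25 were positive and 31 negative, with a median of -0.06, against -0.004 over all genes. At an unadjusted p under 0.05 there were 18 of the 56, where 17.5% of all genes were. DESeq2 called 11, where it called 9.16% of all genes with an adjusted p, and limma-voom 3, where it called 2.18%. The counts for single lists below have the same background. With group as the only term edgeR's quasi-likelihood test called 0 of the 56.

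Of 8 core partners none passed edgeR's blocked quasi-likelihood test, 2 had an unadjusted p under 0.05, DESeq2 called Arntl and limma-voom 0. Arntl averaged 19.0 ± 5.28 CPM in post-caerulein and 25.4 ± 6.51 CPM in untreated libraries (SD, n = 4 and 3), with a log2 fold change of -0.48 ± 0.12 (SE) and an adjusted p of 0.0950 by edgeR. Nr1d2, the paralogue of Nr1d1, averaged 59.1 and 72.2 CPM, and the activator Rora, which competes with NR1D1 at the Arntl gene, averaged 40.9 and 39.0 CPM, each with the post-caerulein mean before the untreated one. The log2 fold changes with the block were -0.33 ± 0.11 (SE) for Nr1d2 and 0.36 ± 0.33 for Rora, and neither passed. Rora was at 22.4, 22.9 and 71.8 CPM in untreated 1, 2 and 3. Its log2 difference was 0.85 in the larger block and -0.84 in the smaller. Among the D-box factors, Tef, an activator related to Dbp, averaged 51.4 CPM in post-caerulein and 58.9 CPM in untreated libraries, and Nfil3, the D-box repressor, 25.6 and 35.6 CPM. Nfil3 was lower in all post-caerulein libraries, at 20.5 to 28.3 CPM against 30.2 to 42.8 CPM, as were 4.65% of all genes. Neither Tef nor Nfil3 passed edgeR's quasi-likelihood test, Nfil3 had an unadjusted p under 0.05, and DESeq2 and limma-voom called 0. Hlf, the remaining factor of that family, was too low to test, with single reads in post-caerulein 2 and 4.

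Of 13 kinases, ubiquitin ligase subunits and cofactors of the clock 0 passed edgeR's blocked quasi-likelihood test, 0 had an unadjusted p under 0.05 and DESeq2 and limma-voom called 0. Csnk1a1 and Csnk1d, casein kinase genes whose products phosphorylate PER proteins, averaged 537 and 261 CPM in post-caerulein libraries, against 530 and 278 CPM in untreated ones. Gsk3b averaged 186 CPM in post-caerulein and 187 CPM in untreated libraries, and Nono, a PER-associated cofactor, 279 and 268 CPM. The 13 log2 fold changes ran from -0.25 to 0.44, the span of their point estimates. Of 6 clock output genes 0 passed edgeR's quasi-likelihood test, with 3 at an unadjusted p under 0.05, 2 called by DESeq2 and 0 by limma-voom. Nampt, of NAD synthesis, averaged 101 CPM in post-caerulein and 138 CPM in untreated libraries, Klf9 171 and 173 CPM, Noct, a rhythmic phosphatase gene, 70.8 and 61.1 CPM, and Klf10 32.1 and 46.2 CPM. Untreated 3 held 74.0 CPM of Klf10, against 31.8 and 32.7 CPM in untreated 1 and 2. Wee1, a cell cycle kinase gene named after its values were seen, was lower in all post-caerulein libraries. It was at 30.6 to 34.2 CPM against 38.4 to 41.5 CPM and did not pass edgeR's quasi-likelihood test (adjusted p = 0.116). DESeq2 called Nampt and Wee1.

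The glucocorticoid receptor and its target genes, 9 in all, bear on the clock through Per1. In edgeR's quasi-likelihood fit with the block 0 of them were called higher and Ddit4 was called lower. Their log2 fold changes were positive for 7 and negative for 2. Ddit4, an inhibitor of mTORC1 signalling, was at 257, 278, 261 and 72.4 CPM in post-caerulein 1 to 4, against 560, 531 and 148 CPM in untreated 1, 2 and 3. The groups overlapped, and within each block the post-caerulein libraries were lower, by -1.04 in the larger and -1.03 in the smaller on the log2 scale. Ddit4 fell by 1.04 with an SE of 0.08 (adjusted p = 0.00740, edgeR quasi-likelihood), and the call was lost without untreated 1 (0.120), untreated 2 (0.0947) or post-caerulein 3 (0.0746) and with close pairs summed (0.422). Over 14 alternatives its adjusted p ran from 2.2e-26 to 0.832, past the threshold in 8. Fkbp5, a chaperone gene strongly induced by glucocorticoids, averaged 1250 ± 296 CPM in post-caerulein and 680 ± 395 CPM in untreated libraries (SD, n = 4 and 3), and Sgk1, a kinase gene, 751 and 409 CPM. Neither passed edgeR's quasi-likelihood test (adjusted p = 0.222 and 0.164) or limma-voom, while DESeq2 called both. Untreated 3, at 1136 CPM for Fkbp5 and 679 CPM for Sgk1, lay within the post-caerulein range of both. Dusp1 averaged 405 and 422 CPM and Errfi1 383 and 356 CPM, post-caerulein before untreated. In untreated 1, 2 and 3 Dusp1 was at 287, 309 and 671 CPM and Errfi1 at 247, 222 and 599 CPM. The log2 differences were 0.31 for Dusp1 and 0.68 for Errfi1 in the larger block, and -0.41 and -0.59 in the smaller. Zbtb16, named after its values were seen, was the 1 list gene higher in all post-caerulein libraries. It was at 27.0 to 39.9 CPM against 10.2 to 22.5 CPM (edgeR adjusted p = 0.0804). DESeq2 called Zbtb16, and limma-voom did not. Tsc22d3, also named after its values were seen, went the other way. Its log2 fold change with the block was -0.47 ± 0.09 (SE, edgeR adjusted p = 0.0510). Its groups overlapped, and both DESeq2 and limma-voom called it. Of this list 7 genes had an unadjusted p under 0.05, DESeq2 called 6 and limma-voom 2.

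Of 9 cAMP and CREB response genes edgeR's quasi-likelihood fit with the block called 0 higher and Pde4d lower. Pde4d, which degrades cAMP, was at 48.3, 48.2, 44.6 and 35.5 CPM in post-caerulein 1 to 4, against 94.0, 94.7 and 51.4 CPM in untreated 1, 2 and 3. The groups did not overlap, by a narrow gap to untreated 3. Pde4d fell by 0.87 with an SE of 0.11 (adjusted p = 0.0231, edgeR quasi-likelihood, blocked), and the call was lost without untreated 1 (0.205), untreated 2 (0.198), post-caerulein 2 (0.0769) or post-caerulein 3 (0.0906) and with close pairs summed (0.559). Over 14 alternatives its adjusted p ran from 2.33e-08 to 0.559, past the threshold in 7. Sik1, a kinase gene induced by CREB, averaged 376 CPM in post-caerulein and 457 CPM in untreated libraries. The nuclear receptor gene Nr4a1 averaged 47.8 and 65.6 CPM, and Creb1 itself 34.0 and 43.4 CPM, in the same order. None of them passed the test. Untreated 3 held 144 CPM of Nr4a1, against 29.0 and 24.0 CPM in untreated 1 and 2. For Nr4a1 the log2 fold change with the block was 0.14 ± 0.42 (SE), with 0.75 in the larger block and -1.37 in the smaller. Creb1 was lower in all post-caerulein libraries, its nearest values being 41.6 CPM in post-caerulein 4 and 42.3 CPM in untreated 2.

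Bhlhe40 is known as a target of HIF1, and 9 hypoxia genes were listed as well. Of these 0 passed edgeR's blocked quasi-likelihood test, with 3 at an unadjusted p under 0.05, 1 called by DESeq2 and 0 by limma-voom, and the median log2 fold change was 0.28. Car9, a carbonic anhydrase gene, averaged 314 CPM in post-caerulein and 281 CPM in untreated libraries, and Hif1a 292 and 274 CPM. The glucose transporter gene Slc2a1 averaged 278 and 287 CPM and Ndrg1 208 and 255 CPM, in the same order. Hif1a was at 190, 169 and 464 CPM in untreated 1, 2 and 3. Its log2 difference was 0.69 in the larger block and -0.61 in the smaller. The log2 fold changes of the 9 genes ran from -1.03 (Ankrd37) to 0.41 (Bnip3), with 5 positive and 4 negative, and the groups overlapped for all 9. Ankrd37 and Bnip3 are named as the ends of that range, after their values were seen.

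**Figure D5:**
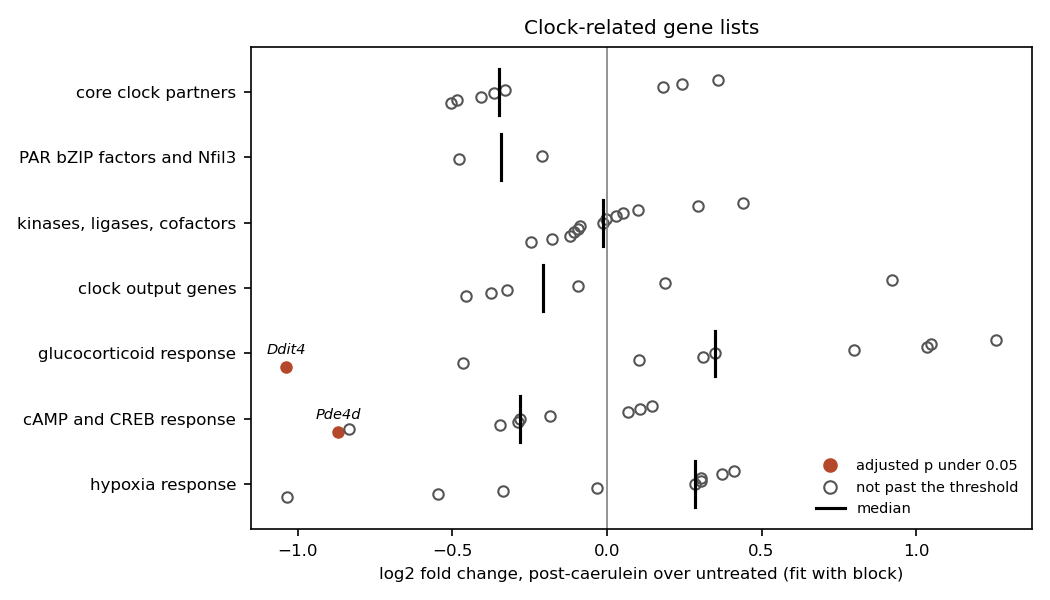
Log2 fold change of each tested gene of the 7 clock-related lists in the fit with the block, with 1 circle per gene and a black line at the list's median. The 2 filled circles are Ddit4 (-1.04) and Pde4d (-0.87); the medians run from -0.35 for the core clock partners to 0.35 for the glucocorticoid response.

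Likeness to Bhlhe40 across libraries was ranked by the Pearson correlation of log2 CPM over the 7 libraries, among 9336 named genes with an average log2 CPM of at least 3. It is a description over libraries that share a block and close pairs. The genes most like Bhlhe40 were Amdhd2 (r = 0.99), Smad7 (0.99), Btbd11 (0.98), Scpep1 (0.98) and Zfp52 (0.98), and those most opposite were Itih2 (-0.99), Cachd1 (-0.99) and Ncs1 (-0.98). Smad7, an inhibitor of TGF-beta signalling, was at 13.2 to 19.3 CPM in post-caerulein and 25.8 to 29.9 CPM in untreated libraries. Itih2 was at 7.78 to 15.2 CPM in post-caerulein and 3.91 to 5.47 CPM in untreated libraries. Among the other members, Bhlhe41 had an r of 0.91 with Bhlhe40 and Cry2 one of -0.80, while Dbp had 0.47.

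For Dbp the most alike genes were Phldb3 (r = 0.99), Cct4 (0.99), Xab2 (0.99), Tesk1 (0.98) and Fyco1 (0.98), and the most opposite Lmf2, Dnajc5 and Fmr1 (each -0.99). Cct4, a subunit gene of the TRiC chaperonin, was at 319 to 432 CPM in post-caerulein and 402 to 484 CPM in untreated libraries, so its groups overlapped, as did those of Dbp. Among the members, Per3 (0.84), Per1 (0.76) and Nr1d1 (0.73) had the highest r with Dbp, and Clock (-0.28) the lowest, over the same 7 libraries. The share of all compared genes with an r as high as those of the members was not counted, for Dbp or for Bhlhe40. The clock genes themselves were thus not among the 5 genes most like Dbp.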

How the data were processed

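For 7 libraries the authors deposited unnormalised gene counts with exon coordinates, per the file headers. Reads were assigned with featureCounts (0.6.1) on GRCm38, per the submitters' processing notes; no source used here names the aligner. The authors' deposited edgeR table (edgeR 3.2.2, per the submitters' processing notes) holds each gene's log2 fold change, its average log2 CPM, a likelihood ratio score (LR), p-values and false discovery rates, per the file headers. Exon length was used for CPM per kb.

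Symbols were matched for 54409 of 54446 genes by gene ID without its version. Genes under the filterByExpr limits (count 10, total 15) were dropped. Counts were scaled by TMM and fitted with edgeR 4.0.16 (robust quasi-likelihood F-test). P-values were adjusted by Benjamini-Hochberg over 16438 genes, with calls under 0.05. Group was the only term, or was joined by the block that gave back the deposited table. CPM uses TMM-scaled library sizes, log2 CPM within blocks a prior count of 2, and likeness log2 of CPM plus 0.5. The larger block was untreated 1 and 2 with post-caerulein 1 to 3. A count of 0 allows 0.0631 to 0.0841 CPM (3 counts), counting error only.

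The members, lists and tests were chosen with earlier results of these data known. All 10 members are named, and of each list the called genes and the 4 most abundant, except 1 gene that is not reported here. Ciart, Wee1, Zbtb16, Tsc22d3, Ankrd37 and Bnip3 were named beyond that rule after their values were seen. Alternatives were DESeq2 1.42.0, limma-voom (limma 3.58.1), other scaling and filters, a block of replicate numbers, leaving out each library and, added later, close pairs summed. The fits were tested on simulated counts. R 4.3.3 and matplotlib 3.10.9 were used.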

Additional observations from a re-analysis of the deposited data

Results flagged for a closer look

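In the 4 post-caerulein libraries, post-caerulein 1 stood far from the other 3 for 2 of the 10 genes by Dixon's test. Per3 was at 12.5 CPM there, below the others, and Clock at 121 CPM, above them. About 1 in 20 such groups is picked out by chance.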

How the results depend on the processing

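Over 14 alternatives, Bhlhe40 and Bhlhe41 had a negative log2 fold change in all 14 (-1.50 to -1.12 and -1.08 to -0.73), as did Nr1d1, Dbp and Clock, and Per2 and Cry2 a positive one in all 14. Per1, Per3 and Cry1 changed sign in 4, 1 and 3 of them. All 140 values moved by less than the SD of single libraries within groups. For Per1, Per2, Per3, Cry1, Nr1d1 and Dbp that SD was larger than the log2 fold change itself. A change of sign could pass for those genes, so this says little of their stability. Dbp ran from -1.12 to -0.24, with an SD of 0.78. Between 6 and 8 members were negative when 1 library was left out. An adjusted p under 0.05 was reached in 6 of the 14 by Bhlhe40, 5 by Bhlhe41 and 3 by Cry2. Bhlhe40 was not called without untreated 1 or 2, or without post-caerulein 1, 2 or 3. Nor was it called with group as the only term, with replicate numbers as a block or with close pairs summed.

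With group as the only term 0 genes were called, against 23 with no filter, 509 by DESeq2, 2247 in the larger block alone and 0 to 1149 (without untreated 3) with 1 library left out; without post-caerulein 4 it was 57. With the block 251 were called, against 602 with no filter, 138 with the stricter filter, 1389 by DESeq2, 0 with close pairs summed and 0 (without untreated 1 or 2) to 2267 (without untreated 3) with 1 library left out; leaving out post-caerulein 1, 2, 3 or 4 gave 131, 29, 3 or 2086. Of the list genes 2 were called, against 5 with no filter, 11 by DESeq2, 17 in the larger block alone, 0 without the block, 0 with close pairs summed and 0 to 18 with 1 library left out. The cause of these shifts was not tested.

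The replicate number as a block called 0 genes and 0 list genes and left 7 members negative. Same-numbered libraries had correlations of 0.37, 0.14 and -0.21 in their deviations from group means, so the numbers were not taken to pair the libraries; untreated 1 matched its own number best, and untreated 2 and 3 did not. The SE of the log2 fold change was 0.30 for Per2, 0.24 for Per3 and 0.51 for Dbp, against 0.10 for Cry1 and Clock.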
